A study of Mus musculus with 2 samples.

Results

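Oligodendrocyte precursor cells (OPCs) were examined in single-cell RNA-seq of the hippocampus of aged C57BL/6 mice, and 651 of the 31095 cells whose total reached 500 UMIs (unique molecular identifiers, each standing for 1 captured probe molecule) were counted as OPCs. They were chosen by their own RNA: Pdgfra, Cspg4, C1ql1, Neu4, Lhfpl3 and Tnr had to sum to at least 5 UMIs and at least 10 per 10000 UMIs of the cell, with at least 1 UMI of Pdgfra or Cspg4. The sum also had to be 2 or more times that of each of Mog+Mag+Ermn, Aqp4+Gja1, Slc17a7+Gad1+Gad2 and Col1a1+Col1a2, which mark oligodendrocytes, astrocytes, neurons and fibroblasts. The control library was made from 4 pooled mice on control diet and the tomatidine library from 4 pooled mice that ate 0.05% tomatidine, a steroidal alkaloid from tomato, for 3 months from 21 months of age. Both groups were C57BL/6, described in the study's methods as wild-type mice of both sexes, and the hippocampus was flash frozen before it was dissociated and fixed. With 1 pooled library per group, the spread between mice cannot be seen and a difference between libraries cannot be told apart from a difference between 2 preparations. No test was therefore made, and every interval below covers counting error only, at 95%.

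OPCs are the dividing glial progenitors of the adult brain, spread evenly through grey and white matter. Platelet-derived growth factor, read by the receptor Pdgfra, drives their division and survival, and they receive synapses from neurons. A cell that leaves this state passes through a committed stage marked by Gpr17, Bmp4 and Enpp6, loses Pdgfra and Cspg4, and then makes myelin as an oligodendrocyte. In aged brain OPCs are known for slower differentiation, and Cdkn2a, which encodes the cell cycle inhibitor p16, has been used to mark senescent ones.

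The control library held 15912 cells and 279525565 UMIs, and the tomatidine library 15185 cells and 259059908 UMIs. Between the libraries 292 cell barcodes recurred, none of them in OPCs. The rule found 324 OPCs in the control library, with a median of 6357 UMIs per cell (788 to 108434), and 327 in the tomatidine library, with a median of 5790 (958 to 109846). For comparison, the same kind of rule gave 3325 and 2607 oligodendrocytes, 940 and 1213 astrocytes, and 6514 and 6101 neurons, in control and tomatidine. OPCs made up 2.04% of control cells (exact binomial interval 1.82 to 2.27) and 2.15% of tomatidine cells (1.93 to 2.40). The difference was 0.12 percentage points, with an interval of -0.20 to 0.44 that includes 0.

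The 6 genes that chose the cells are given as a description. Pdgfra, the growth factor receptor (GRCm38, chromosome 5, 75152292 to 75198215, plus strand), was found in 300 of 324 control cells and in 308 of 327 tomatidine cells, with medians of 17 and 15 UMIs per cell. Cspg4, the NG2 proteoglycan (chromosome 9, 56865033 to 56899870, plus strand), was found in 302 and 305 cells, with medians of 11 and 9 UMIs. Tnr, an extracellular matrix glycoprotein (chromosome 1, 159523769 to 159931729, plus strand), was found in 293 and 304 cells. Neu4, a sialidase (chromosome 1, 94020451 to 94028334, plus strand), C1ql1, a secreted synaptic protein (chromosome 11, 102939264 to 102946688, minus strand), and Lhfpl3 (chromosome 5, 22746059 to 23275597, plus strand) completed the sum. The sum had a median of 62 UMIs in the control and 54 UMIs in the tomatidine cells, so most members lay far above the limit of 5. Exactly at the limit stood 8 control and 11 tomatidine cells, and 15 and 6 cells with a sum of 4 met every other condition. Another 142 control and 130 tomatidine cells were turned away only because a sum for another class was too high, 59 and 32 of them by the oligodendrocyte sum.

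The label was checked against Olig1, Olig2 and Sox10, the transcription factors that define the oligodendrocyte lineage and that the rule did not use. At least 1 UMI of these was present in 303 control cells (93.5%) and 310 tomatidine cells (94.8%). Olig2 alone had a median of 8 UMIs per control cell and 7 per tomatidine cell. The label did not hold for every cell. In each library 24 cells carried 3 or more UMIs of Rgs5, Vtn, Kcnj8, Acta2 and Tagln, which mark pericytes and smooth muscle, the mural cells of vessels, and Cspg4 is also made by pericytes. In these, Vtn had a median of 87.5 UMIs among the control and 100.5 among the tomatidine cells, while the medians of Pdgfra, Olig1 and Olig2 were 0 in both. Some carried OPC RNA too, since 2 control and 6 tomatidine cells of this kind had 10 or more UMIs of Pdgfra.

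A further 16 control and 20 tomatidine cells had 6000 or more genes, and those held 23.2% and 32.7% of all member UMIs. Their median depths were 30136 and 38277.5 UMIs. Besides OPC genes they carried neuronal RNA: the median of Snap25, a synaptic vesicle fusion protein, was 38.5 UMIs for control and 77.5 for tomatidine cells. Slc17a6, the glutamate transporter of thalamic and other subcortical neurons, had 10 or more UMIs in 5 of the 16 control and in 15 of the 20 tomatidine cells, and the rule screens for no gene of this kind. Of these deep cells, 4 in the tomatidine library also carried the mural markers. The doublet caller Scrublet marked 1 of the deep control cells and none of the deep tomatidine cells among its highest 2% of scores.

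A core set was therefore formed after the data were seen: members with at least 1 UMI of Olig1, Olig2 or Sox10, fewer than 3 UMIs of the mural genes and fewer than 6000 genes. It held 280 control OPCs with 1795489 UMIs (median 6357 per cell) and 285 tomatidine OPCs with 1686477 UMIs (median 5736). Values for all members come first below, with those of the core beside them, since they differ for many genes. The core share of cells was 1.76% in control and 1.88% in tomatidine.

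**Figure D1:**
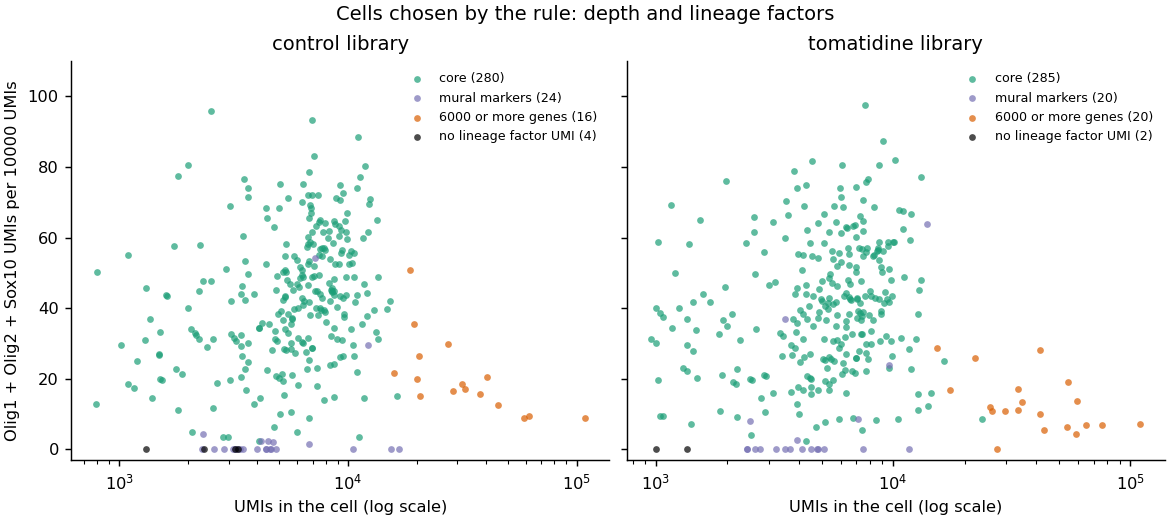
Each point is a cell chosen by the rule, with its UMIs on a log axis across and its Olig1, Olig2 and Sox10 UMIs per 10000 upward, for the control library on the left and the tomatidine library on the right. The core cells (280 and 285) form a cloud around 6000 UMIs, the cells with mural markers lie mostly at or near 0, and the 16 and 20 cells with 6000 or more genes lie to the right with a lower share of lineage factors; the 4 tomatidine cells that are both are drawn with the latter.

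Which genes set OPCs apart from their descendants and from astrocytes was asked first. Each gene's level is given as CPM, its UMIs per 1000000 UMIs summed over the cells of a class, and is compared only with the same gene in another class, since genes differ in their probes. Of 9559 genes with at least 100 UMIs in the members, with the genes of the rule left out, 196 (2.05%) were 4-fold or more higher in OPCs than in oligodendrocytes and in astrocytes in both libraries. In the core 249 genes passed, and 183 of the 196 were among them. Because these cells were selected on co-expressed genes, the numbers describe the class and test nothing.

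The 25 genes with the highest ratio, taking the smaller of the libraries, lay between 28.5-fold and 202-fold over the higher of the other classes. Susd5, a hyaluronan-binding membrane protein, stood at 282 CPM in control OPCs and 296 in tomatidine OPCs, against 1.35 and 1.46 in oligodendrocytes and 1.01 and 1.22 in astrocytes. Gpr17, the receptor of the transition to committed cells, followed with 1338 and 1303 CPM in OPCs against 10.4 and 9.03 CPM in oligodendrocytes. Vcan, a large matrix proteoglycan, had 698 and 604 CPM in OPCs and under 7 CPM in oligodendrocytes, astrocytes and neurons alike. These 3 genes were thus all but absent from oligodendrocytes, although OPCs give rise to them.

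Several of the other genes at the top also belong to the pericellular matrix and cell surface. Matn4, a matrilin, reached 1022 and 862 CPM in OPCs and Acan, the aggrecan core protein, 93.3 and 96.2. Mmp2, a matrix metalloprotease, reached 125 and 111 CPM, Sema3d, a secreted guidance cue, 222 and 187, and the integrin subunit Itga9 197 and 163. Enzymes that modify sugar chains were present too, with Chst5 at 85.0 and 84.9 CPM and B3gnt7 at 56.5 and 48.5 CPM. Megf11 (458 and 456 CPM), Tmem255b (254 and 205), Angptl1 (80.7 and 71.4), Fam89a (79.5 and 67.2), Inava (145 and 112), Sapcd2 (137 and 115), Pnlip (45.1 and 33.1), S100a2 (18.6 and 20.3), Mc5r (34.4 and 31.2), Kcnh8 (56.9 and 64.2) and Zfp469 (83.4 and 76.2) filled other places. Regulators among the 25 were the transcription factors Myt1 (420 and 433 CPM) and Gsx1 (34.4 and 22.9), the Notch ligand Dll3 (140 and 104) and Cacng4, an auxiliary subunit of AMPA receptors (738 and 705). Neurons had under 5 CPM in both libraries for 21 of the 25, and the clearest exceptions were Myt1 at 39.1 and 41.3 and Megf11 at 13.1 and 14.9.

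**Figure D2:**
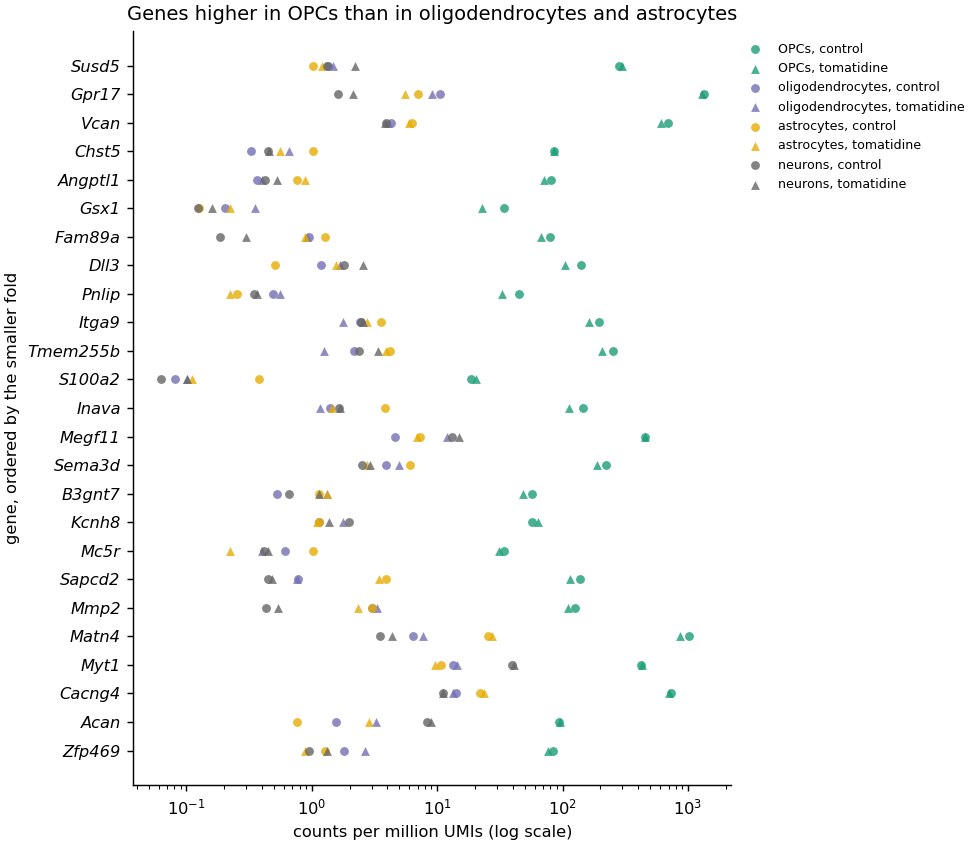
Levels of the 25 genes with the highest ratio of OPCs over oligodendrocytes and astrocytes, in CPM on a log axis, with colours for cell classes, circles for the control and triangles for the tomatidine library. In all 25 both OPC points lie to the right of every other class, with the smaller fold between 28.5 and 202.

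By function, matrix and adhesion genes contributed most: 8 of 21 tested were past 4-fold, against 2.05% of all genes. Vcan and Matn4 were among them, with Pcdh15, a cadherin, at 864 CPM in control and 772 CPM in tomatidine OPCs and Cntn1, a neural adhesion molecule, at 1363 and 1163. Of 18 synapse organisers 4 passed, led by Nxph1, a secreted synaptic ligand, at 413 and 372 CPM. Among 26 lineage transcription factors 2 passed, and Sox4, a factor of progenitors, had 160 and 122 CPM in OPCs against 7.41 and 7.56 in oligodendrocytes. Olig2 was 3.56-fold and Olig1 2.42-fold higher by the smaller ratio, and Sox10, which the lineage keeps through maturation, was level with oligodendrocytes at 1.02-fold. The Notch ligands Dll1 and Dll3 passed among 23 Notch and Wnt genes, and Ccnd1, cyclin D1, was 11.8-fold higher by the smaller ratio. None of 21 receptor, 15 myelin, 6 cell cycle inhibitor, 19 cholesterol synthesis, 15 interferon or 14 immediate early genes passed. Genes of the rule were left out of these counts, such as Pdgfra among the receptors.

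The rule asked for a UMI of Pdgfra or Cspg4 and capped Mog+Mag+Ermn, so it limits the shares below. It turned away 59 control and 32 tomatidine cells by the oligodendrocyte sum. For lack of a Pdgfra or Cspg4 UMI it turned away 14 and 12. Among the cells kept, how far they had moved toward oligodendrocytes was read from Gpr17, Bmp4 and Enpp6. With 3 or more UMIs of these 3 genes as the limit, 226 of 324 control members (69.8%, 64.4 to 74.7) and 235 of 327 tomatidine members (71.9%, 66.7 to 76.7) passed, a difference of 2.11 points (-4.86 to 9.06). After thinning each cell to 1500 UMIs, with 16 and 25 shallower cells left out, the shares were 33.6% and 36.8%, a difference of 3.21 points (-4.34 to 10.7). Nearly all of this was Gpr17, with 3384 and 3469 UMIs against 55 and 58 for Bmp4. Gpr17 was found in 236 of 280 control and 252 of 285 tomatidine core OPCs, so that this limit marked most OPCs and no separate stage. By Bmp4 and Enpp6 alone, without Gpr17, 4 members of each library reached 3 UMIs.

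In the core, 6 control and 10 tomatidine OPCs had 50 or more Gpr17 UMIs per 10000, a limit set after the values were seen, near which (within 10) lay 8 cells in each library. A UMI of Pdgfra was found in 3 of the 6 control cells, which together stood at 1015 CPM, and in 273 of the 274 other control core cells, at 2854 CPM. In the 10 tomatidine cells it was found in 9, at 1817 against 2705 CPM. Bcas1, a gene of early myelinating cells, stood at 3111 against 270 CPM in the control and 1023 against 302 CPM in the tomatidine core. Enpp6, an early oligodendrocyte phosphodiesterase, had 76 UMIs in the control and 23 in the tomatidine core, and 3 cells held 84.2% of the former. Its CPM ratio of -1.63 on the log2 scale (-2.37 to -0.94) therefore rested on a few cells, in a gene found in 12 and 11 core OPCs.

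The second question was what differed in OPCs between the tomatidine and the control library. Ratios are log2 of tomatidine CPM over control CPM, so that 0.58 stands for 1.5-fold, and their interval comes from an exact conditional binomial. Among 9573 genes with at least 100 UMIs in the members, 252 (2.63%) were 1.5-fold or more higher and 171 (1.79%) 1.5-fold or more lower in the tomatidine library. In the core, with 8239 such genes, 96 (1.17%) were higher and 84 (1.02%) lower, and the median of all genes was 0.01. Fewer genes thus passed the fold once mural and deep cells were set aside.

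Several of the highest genes among all members moved toward 0 in the core. Ndn, a neuronal growth suppressor, went from a log2 ratio of 1.12 to 0.54, Tmem130 from 1.03 to 0.46, Rnf227 from 1.04 to 0.40 and Hsf4, a heat shock factor, from 1.12 to 0.09. In the deep cells Ndn had medians of 4 UMIs in the control and 26.5 in the tomatidine library. Kctd9 went from 1.05 to 0.52, Dleu7 from 1.03 to 0.72 and Rgs6 from 1.25 to 0.88, each with a core interval that includes 0. Others among the 10 highest stayed: Tnc (1.23 and 1.37 in the core), Myl6b, a myosin light chain (1.58 and 1.96), and Lrrc75b (1.03 and 0.96). Of the 10 lowest, Mog, Cldn11, Mal and Aspa are oligodendrocyte genes, C4b encodes complement C4, and Adm encodes the peptide adrenomedullin. Vsig10 (-1.07, core -0.94) and Kif26a (-1.06, core -0.95) kept their values, while Kcnj4 (-1.10, core -0.46) and Rprml (-1.09, core -0.64) had core intervals that include 0.

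**Figure D3:**
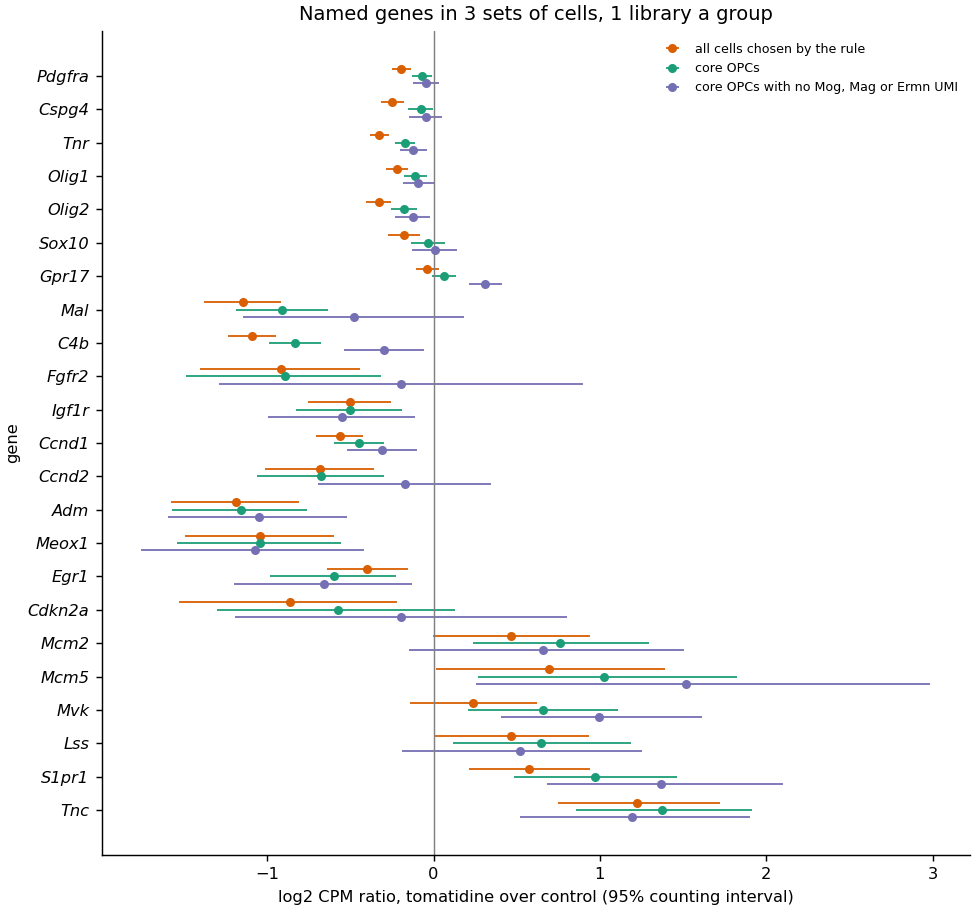
Log2 ratio of CPM, tomatidine over control, for 23 genes in all cells chosen by the rule (orange), in core OPCs (green) and in core OPCs with no UMI of Mog, Mag or Ermn (purple), with 95% counting intervals and 1 library per group. Pdgfra, Cspg4 and Sox10 lie close to 0 in the core (-0.07, -0.08 and -0.03), Mal and C4b move toward 0 from orange to purple, and Adm, Meox1 and Tnc hold their place.

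Genes of OPC identity differed little. Pdgfra stood at 2808 CPM in control and 2675 CPM in tomatidine core OPCs, a log2 ratio of -0.07 (-0.13 to -0.01), and at -0.19 over all members. Cspg4 was at -0.08, Tnr at -0.17, Olig1 at -0.11 and Olig2 at -0.18 in the core, each 0.1 or more lower over all members, and Sox10 at -0.03 (-0.14 to 0.07). Pdgfra, Cspg4 and Tnr helped to choose the cells, so their ratio is a description. Gpr17 stood at 1739 and 1817 CPM, a ratio of 0.06 (-0.01 to 0.14), and at 0.31 (0.21 to 0.41) in core OPCs without a UMI of Mog, Mag or Ermn.

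Of 26 lineage transcription factors none was past 1.5-fold in the core in either direction, against 4.36% higher and 3.47% lower among all 11342 genes with at least 20 core UMIs, and the list median was -0.07. Over all members the median was -0.24, with 2 of 26 past 1.5-fold lower and none higher, where 5.5% of 12046 genes were higher and 4.15% lower. Sox8 was at 390 and 457 CPM (0.23, 0.08 to 0.38). Myrf, the master regulator of myelin genes, was at 108 and 78.9 CPM (-0.45), and at 0.05 in core OPCs without an oligodendrocyte marker UMI.

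Matrix and adhesion genes had a core median of -0.06, and Tnc was the 1 gene of 24 past 1.5-fold, a share near the background. Tnc encodes tenascin C (chromosome 4, 63959785 to 64047015, minus strand), a matrix glycoprotein of progenitors and reactive glia. It had 44 UMIs in 25 of 280 control core OPCs (8.93%) and 107 UMIs in 52 of 285 tomatidine core OPCs (18.2%), or 24.5 and 63.4 CPM. The log2 ratio was 1.37 (0.85 to 1.91), and thinned to 1500 UMIs the shares were 2.93% and 6.80%. The highest cell held 8.61% of its UMIs. In astrocytes Tnc was level at 49.7 and 51.5 CPM (0.05), and in oligodendrocytes it was lower with tomatidine at 7.61 and 4.69 CPM (-0.70, -1.07 to -0.33). The large matrix genes of the class showed no such difference, with Vcan at -0.04, Matn4 at -0.07, Bcan, brevican, at 0.04 and Ptprz1, a receptor phosphatase, at -0.08.

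Myelin genes were lower in the tomatidine library. Over all members 20 of 20 lay below 0, with a median of -0.71 and 14 past 1.5-fold, where 4.15% of all genes were lower. In the core 17 of 20 did, with a median of -0.43 and 6 past 1.5-fold lower, where 3.47% of all genes were. Mog, Mag and Ermn, whose sum the rule capped, belong to this list. All of them were among the 14 over all members, and Mog was among the 6 in the core. These counts therefore include genes that the rule used. The same list had a median of -0.39 in astrocytes, with 17 of 20 below 0. In oligodendrocytes its median was -0.13, with 19 of 20 below 0. Mal, a myelin lipid raft protein, stood at 183 CPM in control and 97.2 in tomatidine core OPCs (-0.91, -1.19 to -0.63), and Mbp, myelin basic protein, at 954 and 798 (-0.26). Mog, which the rule capped, stood at 95.2 and 41.5 CPM (-1.20), and Aspa, an acetylaspartate hydrolase, at 39.0 and 17.8 (-1.13). Ugt8a, which makes galactolipids, was level at 0.01, and Klk6 (16 and 23 UMIs) was at 0.61 with an interval that includes 0.

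Oligodendrocyte markers moved with this result. At least 1 UMI of Mog, Mag or Ermn was present in 139 of 280 control core OPCs (49.6%) and 107 of 285 tomatidine core OPCs (37.5%), a difference of -12.1 points (-20.1 to -3.92). In astrocytes, which should lack them, the shares were 49.7% and 40.4%, and in neurons 47.6% and 44.1%, at median depths of 5236 and 4911 UMIs and of 17206.5 and 16208 UMIs. A UMI of these genes was about as frequent in astrocytes as in OPCs. The rules for both classes capped the sum of these genes, so the choice of cells limits the shares. They are not read as a measure of expression, and the source of these UMIs was not tested. Thinned to 1500 UMIs, these shares were 23.3% and 16.2% in core OPCs and 21.7% and 17.5% in astrocytes. Oligodendrocytes were 20.9% of the control and 17.2% of the tomatidine cells. In the 141 and 178 core OPCs without a UMI of the 3 genes, Mbp was at 689 and 583 CPM (-0.24) and the median of 13 myelin genes was -0.26, with 1 past 1.5-fold lower. The part of oligodendrocyte RNA in the lower myelin genes was not tested beyond these values.

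C4b (chromosome 17, 34728380 to 34743882, minus strand) encodes complement component C4, which reactive glia make in aged brain. It stood at 535 CPM in control and 300 CPM in tomatidine core OPCs, from 960 UMIs in 178 cells and 506 UMIs in 143 cells. The log2 ratio was -0.83 (-0.99 to -0.68), and the share of cells with a UMI was 63.6% and 50.2%. Oligodendrocytes, at 3040 and 1947 CPM, had a ratio of -0.64, and astrocytes, at 1088 and 1059 CPM, one of -0.04. In core OPCs without an oligodendrocyte marker UMI the ratio was -0.30 (-0.54 to -0.06), from 343 and 279 CPM, and in those with one it was -1.11 (-1.33 to -0.89).

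Among growth factor and cytokine receptors the core median was -0.01, with 2 of 24 past 1.5-fold higher and 1 lower, near the 4.36% and 3.47% among all genes. S1pr1, a receptor for sphingosine 1-phosphate, was found in 36 control and 60 tomatidine core OPCs, at 31.2 and 61.1 CPM (0.97, 0.49 to 1.47). Astrocytes, whose level was 1155 and 1193 CPM, had a ratio of 0.05. The astrocyte genes Aqp4 and Gja1, water channel and gap junction protein, which the rule capped, were also higher in tomatidine core OPCs, at 0.84 and 0.60. They were the 2 highest of 5 astrocyte markers, whose core median was 0.16, with Gfap at -0.33. Summed, the 5 markers had a ratio of 0.09 (0.03 to 0.15). Astrocytes were 5.91% of control and 7.99% of tomatidine cells, and their part in the S1pr1 value was not tested. Igf1r, the insulin-like growth factor receptor, was at 117 and 82.4 CPM (-0.50, -0.82 to -0.19), short of 1.5-fold, and at -0.55 in cells without oligodendrocyte marker UMIs. Fgfr2, a fibroblast growth factor receptor, was at 42.9 and 23.1 CPM (-0.89) from 77 and 39 UMIs. Its level in oligodendrocytes was 471 and 396 CPM, and it was at -0.20 (-1.29 to 0.90) in core OPCs without an oligodendrocyte marker UMI.

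Adm, the precursor of the vasodilator peptide adrenomedullin (chromosome 7, 110627661 to 110629820, plus strand), was lower on both sides of that split. The split uses Mog, Mag and Ermn, which the rule capped, so its values are a description. Adm had 176 UMIs in 74 control core OPCs and 74 UMIs in 47 tomatidine core OPCs, or 98.0 and 43.9 CPM (-1.16, -1.57 to -0.76). The ratio was -1.05 (-1.60 to -0.52) without and -1.34 with an oligodendrocyte marker UMI in the cell. Oligodendrocytes had 1.10 and 1.51 CPM and astrocytes 9.37 and 6.41 CPM, so OPCs held the highest level of these classes. Thinned to 1500 UMIs, 11.3% of control and 6.20% of tomatidine core OPCs had an Adm UMI, a difference of -5.13 points (-10.1 to -0.26). The homeobox gene Meox1, at 0.57 and 0.30 CPM in oligodendrocytes, was at 63.5 and 30.8 CPM in core OPCs (-1.04, -1.54 to -0.56). Bag3, a co-chaperone of selective autophagy, was at 40.7 and 19.0 CPM (-1.10) and at -1.07 in core OPCs without an oligodendrocyte marker UMI.

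Applied to the core, the rule for the extremes also named Tmtc3 (-0.93), Nrbf2 (-0.95) and Ttr among the lower genes. Among the higher ones it named Etl4 (1.04), Arv1 (1.01), Carmil3 (1.01), Zfp9 (0.96), Slc7a14 (0.95), Pms1 (0.93) and Mtr, methionine synthase (0.92). Each of these 7 rested on 37 to 54 UMIs in the control library. Ttr, transthyretin, is made by the choroid plexus. It had 846 UMIs in 241 control core OPCs and 75 UMIs in 57 tomatidine core OPCs (-3.41), and the ratio was -4.44 in oligodendrocytes and -3.45 in astrocytes, so that all 3 classes shared it. Of the 5 choroid plexus markers, all were detected in the control core and 3 in the tomatidine core, where Folr1 and Clic6 were at 0.

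Cell cycle genes split. The D cyclins lay below 0: Ccnd1, which lets progenitors enter the cycle, was at 499 CPM in control and 366 CPM in tomatidine core OPCs (-0.45, -0.60 to -0.30), and Ccnd2 at 88.0 and 55.1 CPM (-0.67, -1.06 to -0.30). Of these, Ccnd2 was past 1.5-fold and Ccnd1 was not. In core OPCs without an oligodendrocyte marker UMI Ccnd1 was at -0.31 (-0.52 to -0.10), while Ccnd2 was then at -0.17 with an interval that includes 0. The 6 subunits of the replicative helicase, Mcm2 to Mcm7, were all above 0, from 0.18 for Mcm4 to 1.03 for Mcm5. Summed, they had 250 UMIs in the control and 346 in the tomatidine core (139 and 205 CPM), a log2 ratio of 0.56 (0.32 to 0.80), and the highest tomatidine cell held 8.09% of them. Over the 11 proliferation genes with 20 UMIs the core median was 0.43, with 4 past 1.5-fold higher and 1 lower, where 4.36% and 3.47% of all genes were.

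A UMI of Mki67 or Top2a, which mark cells in cycle, was found in 0 of 280 control and 5 of 285 tomatidine core OPCs. For the 0 of 280, an approximate 1-sided limit, 3 divided by the number of cells, allows a share of up to 1.07%. That limit is on cells with a UMI, not on cells that express the genes or divide. Only 1 of these 5 had 3 or more UMIs of the pair, a cell of 4351 UMIs with 26 UMIs of Pdgfra.

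Cdkn2a (chromosome 4, 89274471 to 89294653, minus strand) gives p16 and, from another reading frame, p19Arf, and its count cannot tell them apart here. It had 57 UMIs in 37 of 324 control members (11.4%, 8.17 to 15.4) and 33 UMIs in 25 of 327 tomatidine members (7.65%, 5.01 to 11.1). The log2 CPM ratio was -0.86 (-1.53 to -0.22), at 22.5 and 12.4 CPM. In the core there were 46 UMIs in 34 cells and 29 UMIs in 22 cells, with a ratio of -0.58 (-1.30 to 0.13) whose interval includes 0. The difference in the share of core OPCs with a UMI was -4.42 points (-9.47 to 0.54). Thinned to 1500 UMIs, the core shares were 3.43% and 2.25%, a difference of -1.18 points (-4.36 to 1.88), so a difference in share was not detectable at this depth.

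Cdkn2a was more frequent in OPCs than in oligodendrocytes, astrocytes and neurons, the classes it was compared in. A UMI was found in 1.05% of control and 0.81% of tomatidine oligodendrocytes, in 0.43% and 0.33% of astrocytes, and in 0.68% and 0.79% of neurons, although neurons had a median depth of 17206.5 and 16208 UMIs. Thinned to 1500 UMIs, oligodendrocytes stood at 0.23% and 0.20%, with intervals (0.10 to 0.47 and 0.06 to 0.46) that do not reach those of core OPCs (1.58 to 6.39 and 0.82 to 4.86). Most positive core OPCs had a single UMI, 26 of 34 in the control and 16 of 22 in the tomatidine library. Those with a UMI were deeper than those without, with medians of 8143 against 6073 UMIs in control and 6607.5 against 5598 in tomatidine. At least 3 UMIs of Gpr17, Bmp4 and Enpp6 were present in 25 of the 34 control and 22 of the 22 tomatidine core OPCs with a Cdkn2a UMI, against 183 of 246 and 191 of 263 of those without. Their rule-gene sums were alike, at 105 against 99.0 per 10000 in control and 102 against 92.3 in tomatidine.

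Of the other inhibitors of the cycle, Cdkn1a and Cdkn2b were found in few core OPCs. Summed over the 14 inhibitors of the list, Cdkn2a included, the core stood at 488 CPM in control and 409 in tomatidine. Cdkn1a, which encodes p21, was found in 20 control and 15 tomatidine core OPCs (7.14% and 5.26%), a difference of -1.88 points (-6.05 to 2.19), close to the 7.87% and 5.77% of astrocytes. Cdkn2b, p15, was found in 11 and 8 core OPCs. The list of cell cycle inhibitors had a core median of -0.32 over 13 genes, with 11 below 0 and 3 past 1.5-fold lower, where 3.47% of all genes were, and no core interval of Gadd45a, Gadd45b, Btg2, Rb1 or Trp53 excluded 0.

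**Figure D4:**
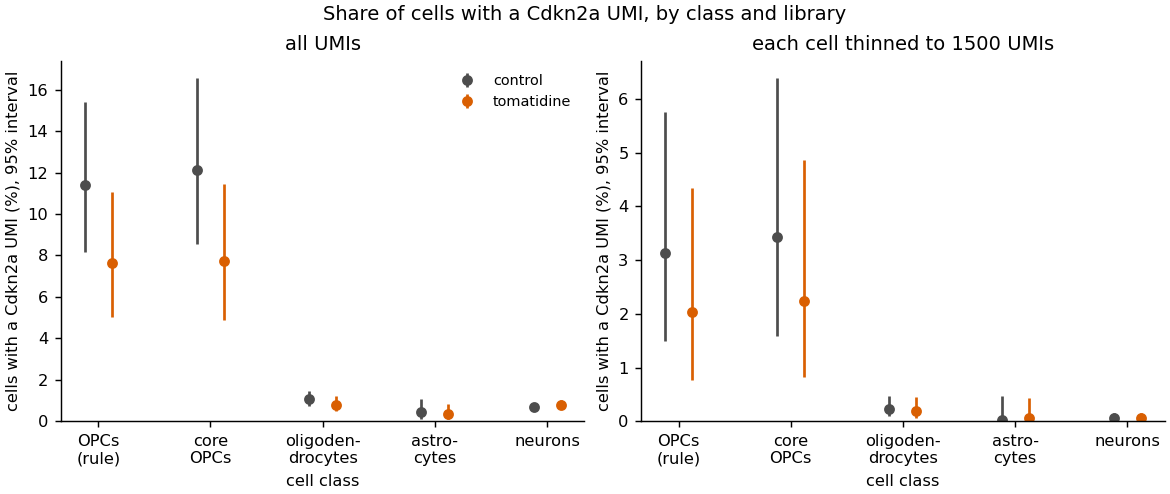
Share of cells with at least 1 Cdkn2a UMI in percent, by cell class, for the control (grey) and tomatidine (orange) library, with 95% exact binomial intervals, from all UMIs on the left and after thinning each cell to 1500 UMIs on the right. OPCs lie above oligodendrocytes, astrocytes and neurons in both libraries, at 11.4% and 7.65% before thinning, while the intervals of the libraries overlap.

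Most of the remaining lists had core medians near 0. Glutamate and GABA receptors had a core median of 0.03 with none of 30 past 1.5-fold, and synapse organisers one of -0.02 with none of 19. Gria2, the AMPA receptor subunit that limits calcium entry, was at 742 and 757 CPM. Ion channels had a core median of 0.08 with none of 24 past 1.5-fold. Hcn2, a pacemaker channel, was at 202 and 263 CPM (0.38, 0.17 to 0.58) and Cacna1d, a calcium channel, at 83.0 and 114 CPM (0.46, 0.15 to 0.78). Over all members Scn1a, a sodium channel, and Snap25 had reached 0.80 and 0.58, and they were at 0.23 and 0.22 in the core.

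Cholesterol synthesis genes, which differentiating OPCs need for membrane, had a core median of 0.12, with 15 of 21 above 0 and 2 past 1.5-fold higher, where 4.36% of all genes were. These were Mvk, mevalonate kinase, at 39.5 and 62.3 CPM (0.65, 0.21 to 1.11) and Lss, lanosterol synthase, at 28.4 and 44.5 (0.65, 0.11 to 1.19). In astrocytes the median was 0.25 and in oligodendrocytes 0.01. ATF4 targets had a core median of -0.07, and Atf4 itself was at -0.41 with an interval that includes 0. Over all members Chac1 and Slc7a11, targets of ATF4 in amino acid stress, had reached 1.55 and 1.28, and in the core they rested on 27 and 24 UMIs with intervals that include 0.

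Notch and Wnt genes had a core median of -0.01. Axin2, a target of Wnt signalling, was at 126 and 160 CPM (0.34, 0.08 to 0.60) and Lef1, a Wnt transcription factor, at 8 and 20 UMIs (1.41, 0.17 to 2.80). Apcdd1, an inhibitor of Wnt receptors, was lower at 34.5 and 20.2 CPM (-0.78, -1.42 to -0.15). The Notch targets Hes5 and Hes1 had ratios of -0.22 (-0.42 to -0.03) and -0.32 (-0.72 to 0.08). Immediate early genes had a core median of -0.22, with 12 of 15 below 0 and 3 past 1.5-fold lower, where 3.47% of all genes were. Egr1 was at 86.3 and 56.9 CPM (-0.60, -0.98 to -0.22) and Nr4a1 at 287 and 222 CPM (-0.37). For this list astrocytes had a median of -0.24 and oligodendrocytes one of 0.09. Interferon and antigen presentation genes had a core median of 0.06. Cd74, the class II invariant chain, was at -2.80, but 1 control cell held 27 of its 37 control UMIs, and it was at 5 UMIs in the tomatidine core.

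**Figure D5:**
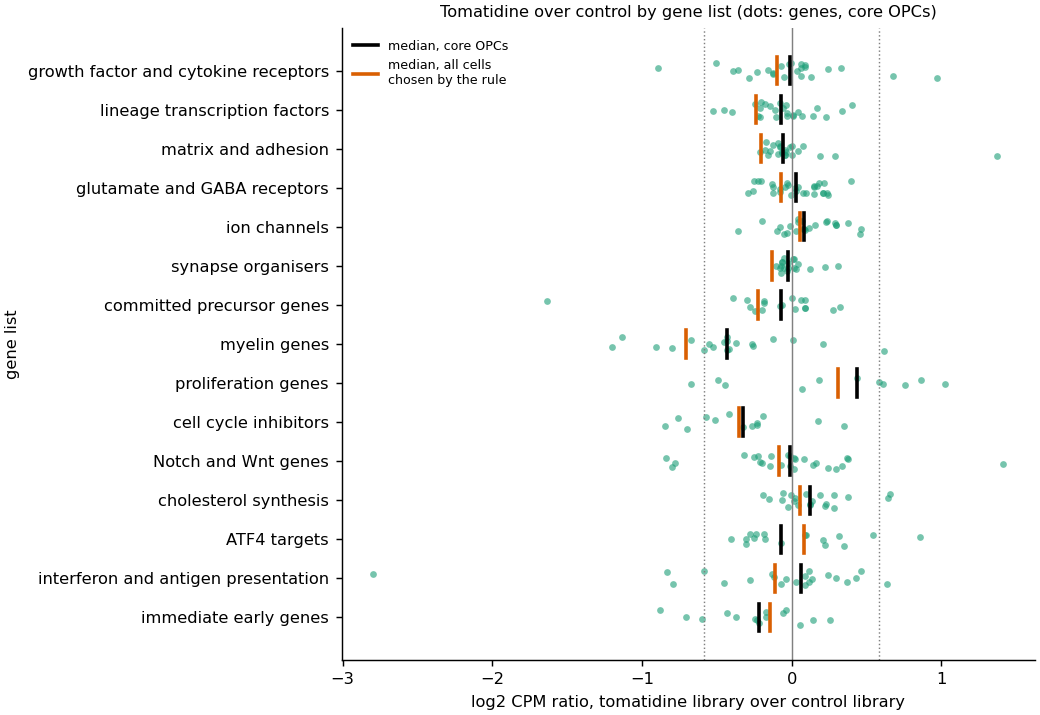
Log2 ratio of CPM, tomatidine over control, for each gene with 20 or more UMIs in core OPCs (dots), by gene list, with the core median in black and the median over all cells chosen by the rule in orange; dotted lines mark 1.5-fold. Myelin genes have the lowest core median (-0.43) and proliferation genes the highest (0.43), and most other medians lie within 0.1 of 0.

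Markers of other cells were present in the core. Those of astrocytes had 4433 UMIs in control and 4426 in tomatidine core OPCs, a median of 11 per cell in both. Those of oligodendrocytes had 4968 and 3185 UMIs, with medians of 7 and 6 per cell. Microglial markers had 854 UMIs in control and 662 in tomatidine core OPCs, of which the highest cells held 160 and 117. Of these markers 6 of 6 measured lay below 0, where 52.2% of all 11342 genes lay above 0. Their median was -0.51 and their summed ratio -0.28 (-0.43 to -0.13). In core OPCs without a Mog, Mag or Ermn UMI, 2 of 5 microglial markers with 20 UMIs lay above 0. Endothelial markers had 27 and 25 UMIs and mural markers 33 and 41, with no more than 3 in any cell. Neuronal markers had 2099 and 2124 UMIs, found at a median of 5 per cell in both libraries.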

How the data were processed

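The authors deposited filtered matrices of raw counts, whole numbers of UMIs per gene and cell from the 10x Genomics fixed, probe-based assay of 19059 genes, aligned to mm10. The submitters' processing notes name Cell Ranger 8.0.0, and the file headers version 7.1.0. Everything else was computed from these counts in Python 3.11.15 (numpy 2.4.6, scipy 1.17.1, pandas 2.3.3) and R 4.3.3, with no doublets removed from the main values, whereas the study's methods name a doublet caller as a later step. Members, gene lists and the rule for named genes were chosen with earlier results of these data known. Counts were summed per library and class and divided by total UMIs. Shares have exact (Clopper-Pearson) intervals, share differences Newcombe's, CPM ratios exact conditional binomial intervals. The intervals leave out all spread between mice. Thinned shares are hypergeometric expectations, so they need no draw.

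Named genes were the rule's genes, the 25 genes highest in OPCs over the other glia, the 10 at each end of the tomatidine ratio (100 or more UMIs, interval without 0, under 10% of UMIs from 1 cell) and members of the lists with 20 or more UMIs. Functions were tested on simulated data. A core set, its cells without a Mog, Mag or Ermn UMI, and Bmp4+Enpp6 without Gpr17 were chosen after seeing the data, and the genes at the ends of the core ratio and Slc17a6 were named after their values were seen. The alternatives were the study's cell filters, stricter gates, Scrublet (scanpy 1.11.5), whose own threshold called 0 control and 3 tomatidine cells and was not used, so that its top 2% of scores (318 control and 303 tomatidine cells) was removed instead, TMM factors (edgeR 4.0.16), a mean over cells and other count limits. Gene coordinates are from the GENCODE annotation of GRCm38 (mm10), matched by Ensembl identifier. Of 6 repeated symbols none is named. Some genes are not reported here.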

Additional observations from a re-analysis of the deposited data

Results flagged for a closer look

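Tnc went opposite ways in core OPCs and in oligodendrocytes, each past 1.5-fold with an interval that excludes 0: the log2 ratio of tomatidine over control was 1.37 in core OPCs and -0.70 in oligodendrocytes, a difference of 2.07. The difference was not tested, since each group has 1 library. Oligodendrocytes had few UMIs of it, at 7.61 and 4.69 CPM.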

How the results depend on the processing

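No paired analysis was possible because each group is 1 library, and no library could be left out for the same reason. The OPC share difference stayed between 0.07 and 0.15 points under every alternative run for it, and the number of genes past 4-fold over the other glia, 196, lay between 201 and 290. The difference in the committed share lay between -0.83 and 3.84 points. Counts of genes past 1.5-fold moved most. The higher count of 252 was 101 with 200 to 6000 genes per cell, 68 without committed precursors, 96 in the core and 68 in core cells without Mog, Mag or Ermn, and 663, 418 and 126 with limits of 20, 50 and 200 UMIs. The lower count of 171 was 68 without committed precursors, 84 in the core, 81 in core cells without Mog, Mag or Ermn, and 500, 299 and 81 with those limits. Removing cells leaves fewer genes with 100 UMIs, and other causes were not tested.

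The Cdkn2a ratio of -0.86 lay between -0.45 and -0.88 under all alternatives but those named next, and its interval included 0 with 200 to 6000 genes per cell, with the stricter purity gate (-0.72, -1.45 to 0.00) and in the core. It was -0.20 in core cells without Mog, Mag or Ermn. Without committed precursors only 98 control and 92 tomatidine members were left, with 12 Cdkn2a UMIs against 0. Against a floor of 3 counts this is at least 3.53-fold lower, or -1.82 on the log2 scale. The cause was not tested.

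Of 165 list medians, 20 changed sign against their value over all members, 18 from below to above 0 and 2 from above to below. The latter were both of ATF4 targets, at -0.27 with the stricter purity gate and -0.07 in the core. The glutamate and GABA receptor median became 0.0432 with 200 to 6000 genes, 0.0139 with the stricter purity gate, 0.0258 in the core and 0.0171 in core cells without Mog, Mag or Ermn, and the Notch and Wnt median 0.00987 without committed precursors. The receptor median became 0.0200 as a mean over cells. Without committed precursors the matrix median became 0.0283, synapse organisers 0.0365, committed precursor genes 0.0516, interferon genes 0.0338 and immediate early genes 0.0694. With 200 to 6000 genes synapse organisers became 0.00796 and interferon genes 0.0261. Interferon genes became 0.0164 with the study's filters, 0.0213 as a mean over cells, 0.0609 in the core and 0.196 in core cells without Mog, Mag or Ermn, where committed precursor genes became 0.0815. Of the 165 medians, 114 stayed within 0.1 of their value over all members. Some moved further with no change of sign. The proliferation median of 0.307 was 0.00516 without committed precursors, 0.0425 as a mean over cells and 0.626 in core cells without Mog, Mag or Ermn. In the last of these the cholesterol synthesis median went from 0.0543 to 0.332. The myelin median of -0.707 lay between -0.909 and -0.258.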
